A study of Mus musculus with 12 samples.

Results

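The genes examined here are 9 regulators of skeletal muscle formation in the mouse forelimb: Pax3, Pax7, Lbx1, Met, Myf5, Myod1, Myog, Myf6 and Mymk. They were taken by symbol from the 51826 gene rows of the forelimb count data, and all 9 were found. RNA was sequenced from 4 libraries of E12.5 embryonic forelimbs, 2 from wild-type mice (WT) and 2 from mice with a conditional knockout of Impdh2 named Prx-cKO. The gene's product makes guanine nucleotides, and Prx drivers of Cre are known to act in the limb mesenchyme; the labels give neither the alleles nor the number of embryos behind a library. The other 8 libraries are osteoclast cultures from the marrow of WT and LysM-cKO mice, the second with a knockout of Impdh2 named for the LysM driver, which is known to act in myeloid cells. The marrow cells were cultured with M-CSF from L929 supernatant, reseeded and given RANKL at 40 ng/ml, per the labels' protocols, and the titles part them into R40D3 and R0D3, with 2 libraries for each title and genotype; the titles are not spelled out, and all carry the same treatment label. The labels do not say whether same-group libraries came from separate animals, so p-values measure only the spread between these samples, which may be technical.

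Limb muscle arises from cells that leave the somites beside the neural tube and migrate into the limb bud, whereas the mesenchyme in which Prx drivers act comes from the lateral plate. Muscle precursors thus lie outside the lineage that Prx drivers mark. In the textbook order, Pax3, Lbx1 and the receptor Met mark migrating precursors, Pax7 marks a progenitor pool, Myf5 and Myod1 commit cells to the muscle fate, and Myog and Myf6 accompany differentiation. Myod1, Myf5, Myog and Myf6 form the family of myogenic regulatory factors (MRFs), which bind E-boxes as dimers with E proteins. Mymk encodes myomaker, a membrane protein needed for fusion of myoblasts into fibres.

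The stretch of the Myog promoter before its start is shown because Myog had the highest level of the 9 genes and because MRFs and Mef2 proteins are known to act there. It lies at chr1:134289754-134289988 (GRCm38.p6, plus strand, RefSeq), and is printed 5′ to 3′ with the motif matches in capitals.
Myog promoter: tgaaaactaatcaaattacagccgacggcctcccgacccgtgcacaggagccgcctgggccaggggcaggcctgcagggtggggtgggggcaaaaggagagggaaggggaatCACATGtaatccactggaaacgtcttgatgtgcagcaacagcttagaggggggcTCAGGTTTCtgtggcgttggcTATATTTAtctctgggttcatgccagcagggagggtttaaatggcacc
Both strands were searched for the E-box (CANNTG), for TATATTTA as an element of the Mef2 type and for TCAGGTTTC as an element of the MEF3 type, and each was found 1 time, with no overlap between matches. Counted from the RefSeq start, the matches begin at bases -138, -63 and -84. The printed stretch stops 15 bases before the RefSeq start, at the start that GENCODE gives, and the bases between were not searched. Of 32851 promoter entries cut to the same 235 bases, 64.1% held an E-box, 1.07% the exact Mef2-type string and 0.365% the exact MEF3-type string. Other forms of the Mef2-type and MEF3-type elements were not searched, so these shares leave them out. All are letter matches and were not tested as binding sites. RefSeq promoter entries matched 4 of the 9 genes (Myog, Myf5, Pax7 and Met).

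The forelimb libraries held 28892215 to 69466572 counts and the culture libraries 16009146 to 19221865. The WT replicates differed more than the Prx-cKO replicates: 7.49% of the 19987 genes tested differed by over 2-fold between the WT libraries and 1.93% between the Prx-cKO libraries. Impdh2 was at 260 and 272 CPM (counts scaled by library size and TMM factor) in WT against 170 and 199 CPM in Prx-cKO, and the difference did not pass (log2 fold change -0.53, SE 0.16, edgeR adjusted p 0.443). Its exons overlap those of 1 other gene, Ndufaf3. The limb mesenchyme markers Prrx1 and Pdgfra were abundant in all 4 libraries, at 175 to 397 CPM and 248 to 466 CPM. For each, both Prx-cKO libraries lay below both WT libraries, as they did for 21.0% of all genes tested. Of the 10 listed limb mesenchyme markers, 7 were lower and 3 higher in the fit. Prrx1 is also the gene for which Prx drivers are named.

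All 9 myogenic regulators were higher in both Prx-cKO libraries than in both WT libraries. Over the 8 that passed the filter on low counts, the log2 fold change ranged from 0.78 for Mymk to 1.99 for Pax3 with a median of 1.16, against a median of -0.03 over all genes tested. None of the 8 passed the adjusted threshold of 0.05 in the edgeR quasi-likelihood test (0 members), where 0 of 19987 genes passed (0%). At an unadjusted p under 0.05, 7 of the 8 were higher, against 5.87% of all genes tested in that direction (8 of 8 had a fitted log2 fold change above 0, against 47.2%). For non-overlapping groups with Prx-cKO higher, the share of all genes was 22.2%. DESeq2 called 3 members, Pax3, Lbx1 and Myod1, all higher, beside 0.699% of its genes called higher (145 of 20738). The fit of all 12 libraries called Pax3 and Lbx1 (2.25% of genes called, 1.1% called higher). With 1 library left out, 3 of the 4 fits called 0 members. The fourth, without WT replicate 1, called Pax3, Lbx1 and Myod1 (1.35% called higher), but it assumes that the lone WT library varies like the Prx-cKO pair, whose replicates were the closer ones. In bulk tissue, more cells of a type and more RNA per cell cannot be told apart, and a smaller share of another tissue raises the CPM of the rest.

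**Figure D1:**
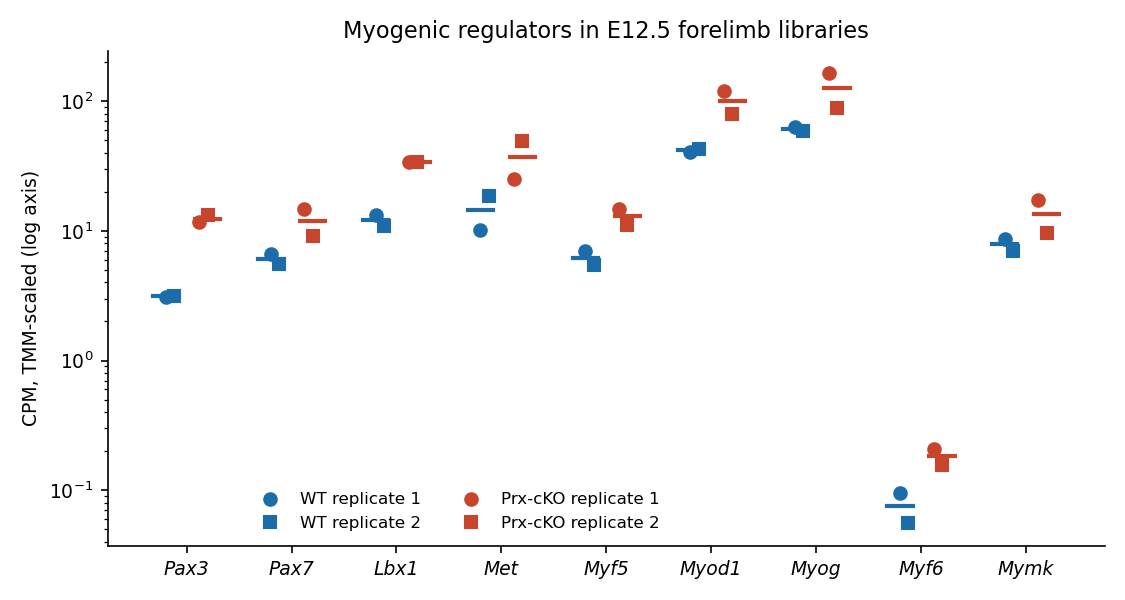
CPM (log axis) of each of the 9 genes in the 4 forelimb libraries; points are single libraries, circles for replicate 1 and squares for replicate 2, and short lines are group means. For every gene both Prx-cKO libraries lie above both WT libraries, with the widest gap in Pax3 and Lbx1 and the narrowest in Mymk.

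Pax3, a paired-box transcription factor of migrating muscle precursors, showed the largest difference of the 8. It lies on chromosome 1 (minus strand), bases 78101267 to 78197134 (ENSMUSG00000004872; GRCm38, GENCODE M21). Its level was 3.10 and 3.16 CPM in the WT libraries and 11.6 and 13.3 CPM in the Prx-cKO libraries. The replicates of each genotype were close to each other, and the lowest of the 4 ratios of a Prx-cKO to a WT library was 3.67. The means were 3.13 ± 0.0482 and 12.4 ± 1.16 CPM (SD, n = 2). The fitted log2 fold change was 1.99 (SE 0.25, edgeR adjusted p 0.319, DESeq2 adjusted p 4.89e-07). Over all 14 settings run, the log2 fold change of Pax3 stayed between 1.89 and 2.09.

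Lbx1, a homeobox factor of precursors that migrate into the limb, came next. It lies on chromosome 19 (minus strand), bases 45232684 to 45235812 (ENSMUSG00000025216). Its level was 13.3 and 11.0 CPM in WT against 34.1 and 33.9 CPM in Prx-cKO. The Prx-cKO libraries were almost equal and the groups did not overlap. The log2 fold change was 1.49 (SE 0.19, edgeR adjusted p 0.319, DESeq2 adjusted p 5.53e-06), and it stayed between 1.37 and 1.59 over the settings.

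Met, the receptor for hepatocyte growth factor that precursors need to detach and migrate, lies on chromosome 6 (plus strand), bases 17463800 to 17573980 (ENSMUSG00000009376). Its level was 10.2 and 18.6 CPM in WT against 25.0 and 49.3 CPM in Prx-cKO. Replicate 1 was at 0.55 of replicate 2 in WT and 0.51 of it in Prx-cKO, the widest spread between replicates among the 8 genes in either genotype; the groups did not overlap. The log2 fold change was 1.36 (SE 0.44, edgeR adjusted p 0.451); it came to 0.79 when Prx-cKO replicate 2 was left out and reached 1.87 without WT replicate 2. Met is also made by epithelial and other cells, so its level is not a measure of muscle precursors alone.

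Pax7, the paired-box factor of later progenitors and a close relative of Pax3, lies on chromosome 4 (minus strand), bases 139737062 to 139833528 (ENSMUSG00000028736). Its level was 6.61 and 5.52 CPM in WT against 14.7 and 9.04 CPM in Prx-cKO. The groups did not overlap, but the gap was narrower than for Pax3, with 0.97 as the log2 fold change (SE 0.33, edgeR adjusted p 0.459). It was 0.59 without Prx-cKO replicate 1. The count ratio of Pax3 to Pax7 was 0.468 and 0.573 in WT and 0.788 and 1.47 in Prx-cKO. This ratio within a library does not depend on how libraries are scaled, and both Prx-cKO libraries lay above both WT libraries.

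Among the commitment factors, Myf5 lies on chromosome 10 (minus strand), bases 107482908 to 107486134 (ENSMUSG00000000435), and was at 7.02 and 5.42 CPM in WT against 14.7 and 11.2 CPM in Prx-cKO. Its log2 fold change was 1.06 (SE 0.28, edgeR adjusted p 0.424). Myod1 lies on chromosome 7 (plus strand), bases 46376474 to 46379099 (ENSMUSG00000009471), and was far more abundant, at 40.7 and 42.9 CPM in WT against 120 and 79.9 CPM in Prx-cKO. The means of Myod1 were 41.8 ± 1.53 and 100.2 ± 28.7 CPM (SD, n = 2), and the fitted log2 fold change was 1.26 (SE 0.23, edgeR adjusted p 0.352, DESeq2 adjusted p 0.00324). Both genes were higher in Prx-cKO replicate 1 than in replicate 2. The count ratio of Myf5 to Myod1 overlapped between the genotypes, at 0.172 and 0.126 in WT against 0.122 and 0.140 in Prx-cKO.

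Myog, the factor of terminal differentiation, lies on chromosome 1 (plus strand), bases 134289989 to 134292548 (ENSMUSG00000026459). Its level was 63.6 and 59.3 CPM in WT against 164 and 88.6 CPM in Prx-cKO. Prx-cKO replicate 1 was 1.85-fold above replicate 2, and both were above WT. The log2 fold change was 1.04 (SE 0.31, edgeR adjusted p 0.443); it was 0.54 with Prx-cKO replicate 1 left out and 1.42 with replicate 2 left out.

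Mymk lies on chromosome 2 (minus strand), bases 27061636 to 27072179 (ENSMUSG00000009214). It followed the same order of libraries, with 8.69 and 7.04 CPM in WT against 17.4 and 9.65 CPM in Prx-cKO. Prx-cKO replicate 2 was thus only just above WT replicate 1. Its log2 fold change was 0.78 (SE 0.35, edgeR adjusted p 0.517), and it was 0.31 without Prx-cKO replicate 1.

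Myf6, which in the embryo acts in differentiating muscle, was barely detected at this stage. It lies beside Myf5 on chromosome 10 (minus strand), bases 107492853 to 107494737 (ENSMUSG00000035923). It had 4 counts in each WT library, and 6 and 8 counts in the Prx-cKO libraries, and did not pass the filter on low counts. The exact 95% Poisson intervals of these counts, 1.09 to 10.2 for 4 counts and 3.45 to 15.8 for 8 counts, overlapped and cover counting error only. A difference in Myf6 was not detectable at this depth (log2 fold change 1.25, SE 0.86, without a filter; edgeR adjusted p 0.789).

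**Figure D2:**
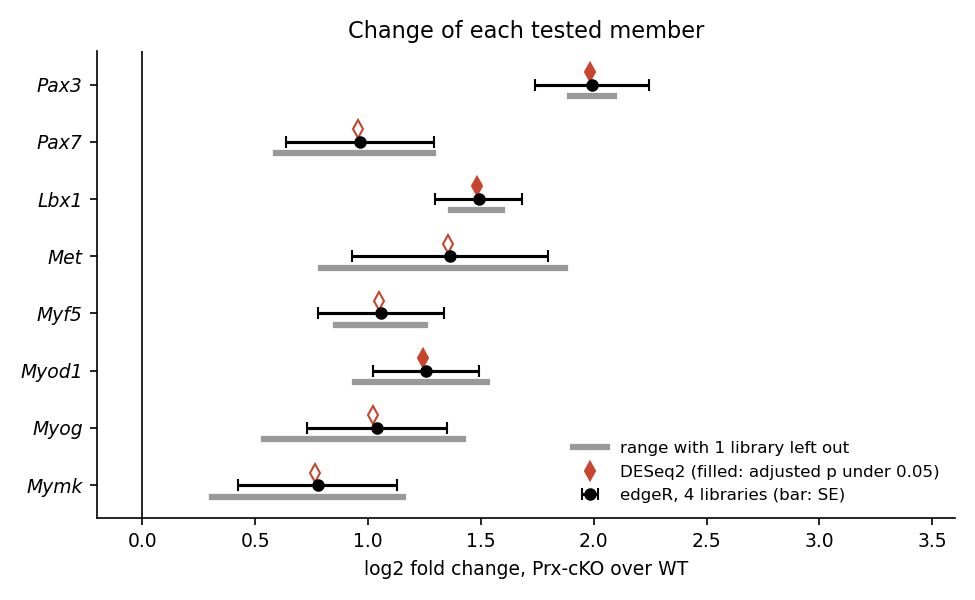
Log2 fold change of Prx-cKO over WT for the 8 tested genes: black points are the edgeR estimate with its SE, grey bars the range when 1 of the 4 libraries is left out, and diamonds the DESeq2 estimate, filled where its adjusted p is under 0.05. The grey bars are short for Pax3 (1.89 to 2.09) and Lbx1 (1.37 to 1.59) and long for Met, Myog and Mymk.

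Because long genes collect more reads, levels between the genes were compared as CPM per kilobase of exon. In WT the order was Myog at 41.1 ± 2.02, Myod1 at 22.5 ± 0.822, Mymk at 5.21 ± 0.776, Lbx1 at 4.88 ± 0.643, Myf5 at 2.99 ± 0.542, Met at 1.88 ± 0.772, Pax7 at 1.04 ± 0.132, Pax3 at 0.506 ± 0.00779 and Myf6 at 0.0595 ± 0.0217 CPM per kilobase (SD, n = 2). Mymk and Lbx1 did not differ beyond their spread, since the values of one fell among those of the other; with these lengths the other neighbours did not overlap. In Prx-cKO, Pax3 reached 2.01 ± 0.187 and Pax7 2.03 ± 0.688 CPM per kilobase and their values overlapped. With the longest transcript as the length, Pax3 was at 0.81 in WT and 3.22 ± 0.299 in Prx-cKO, above both values of Pax7, and Met and Myf5 overlapped in WT.

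The make-up of the member signal was then followed within each library, as the share of each gene in the summed CPM per kilobase of the 9. Myog held 51.9% and 50.6% in WT, 51.1% in Prx-cKO replicate 1 and 43.0% in Prx-cKO replicate 2. The precursor genes Pax3, Pax7, Lbx1 and Met together held 10.1% and 10.6% in WT, 9.96% in Prx-cKO replicate 1 and 17.2% in Prx-cKO replicate 2. Thus Prx-cKO replicate 1 had a make-up close to WT at a higher total, while replicate 2 held a larger share of precursor genes. Mymk held 7.02% and 5.94% in WT and 5.38% and 4.63% in Prx-cKO, where both Prx-cKO libraries lay below both WT libraries. Pax3 held 0.611% and 0.653% in WT and 0.875% and 1.55% in Prx-cKO, where both lay above. These shares carry no test.

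**Figure D3:**
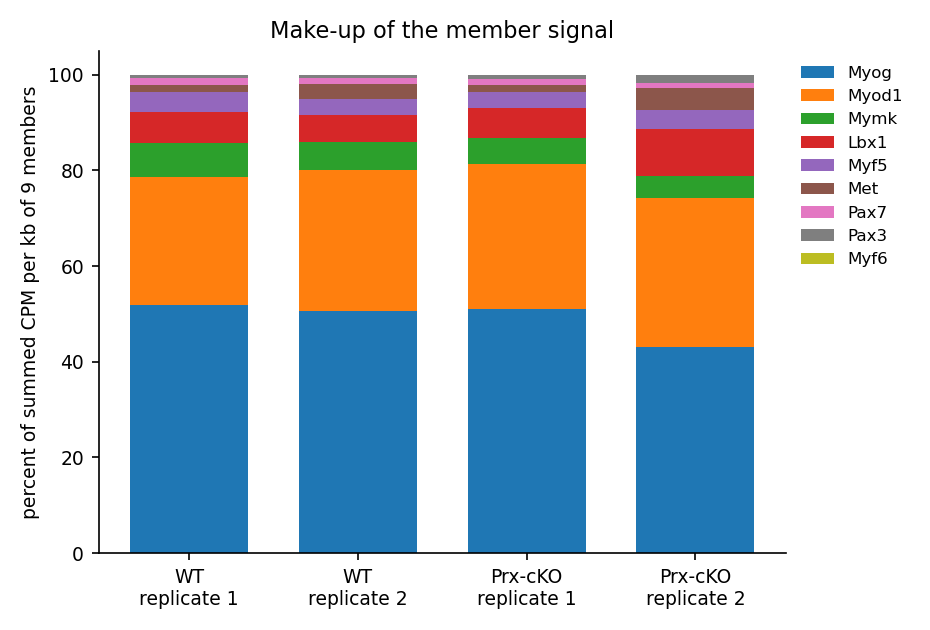
Stacked bars of the share (percent) of each gene in the summed CPM per kilobase of the 9 genes, 1 bar per forelimb library. Myog and Myod1 make up most of every bar; Lbx1, Met and Pax3 take a larger part in Prx-cKO replicate 2 (9.90%, 4.65% and 1.55%) than in the other libraries.

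Genes around the members were taken from lists written from general knowledge; 0 genes of any list passed in edgeR over all genes. Of 11 genes of precursor specification and migration, 6 were higher and 5 lower, with a median log2 fold change of 0.46 (0.26 without WT replicate 2). At an unadjusted p under 0.05, 5 were higher and 1 lower, against 5.87% and 4.61% of all genes tested. Msc (musculin), a basic helix-loop-helix factor of myogenic cells, was at 17.2 and 15.0 CPM in WT against 46.2 and 34.6 CPM in Prx-cKO, a log2 fold change of 1.33 (SE 0.22, DESeq2 adjusted p 0.000511). Cxcr4, the chemokine receptor of migrating precursors, was at 8.60 and 6.63 CPM in WT against 14.9 and 15.4 CPM in Prx-cKO. Meox2, a homeobox gene that the limb mesenchyme also expresses, was lower, at 96.5 and 103 CPM in WT against 75.0 and 68.5 CPM in Prx-cKO.

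The signals and factors of the surrounding mesenchyme and muscle connective tissue went the other way. Of 15 genes, 11 were lower and 4 higher, with a median log2 fold change of -0.34. The lower genes include Tcf4 (log2 fold change -0.08, named after its values were seen), whose groups overlapped. It encodes an E protein, like the MRF partner Tcf3, but was counted here rather than among the partners. At an unadjusted p under 0.05, 5 were lower and 1 higher, against 4.61% of all genes lower, and DESeq2 called 2, both lower, against 0.752% of its genes. Those 2 were Lmx1b, the dorsal patterning factor, at 115 and 142 CPM in WT against 59.7 and 66.9 CPM in Prx-cKO, and Tbx5, the forelimb T-box factor, at 160 and 200 CPM in WT against 97.0 and 91.2 CPM in Prx-cKO. Osr2, a factor of muscle connective tissue, was at 32.7 and 35.6 CPM in WT against 20.8 and 17.8 CPM in Prx-cKO. Igf2, the most abundant of the list, was at 2238 and 1677 CPM in WT against 1654 and 700 CPM in Prx-cKO (log2 fold change -0.73, SE 0.43). The ligands of 2 precursor receptors were among those that did not differ beyond their spread: Hgf had a log2 fold change of -0.13 and Cxcl12 one of 0.15 (both named after their values were seen), and the groups overlapped for each.

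The partners and inhibitors of the MRFs were mixed. Of 10 partners and coactivators 8 were higher and 2 lower, with a median log2 fold change of 0.30. At an unadjusted p under 0.05, 2 were higher, against 5.87% of all genes tested. Vgll2, a muscle-restricted cofactor of Tead proteins, was at 13.5 and 13.4 CPM in WT against 42.4 and 23.1 CPM in Prx-cKO (log2 fold change 1.28, SE 0.32, DESeq2 adjusted p 0.0307). Rbm24, a splicing factor of muscle, was at 22.7 and 21.0 CPM in WT against 43.8 and 30.4 CPM in Prx-cKO. Smyd1, a muscle methyltransferase, was at 15.6 and 16.8 CPM in WT against 32.6 and 17.5 CPM in Prx-cKO. The E protein gene Tcf3, the most abundant of the list, was at 312 and 398 CPM in WT against 403 and 451 CPM in Prx-cKO. The partner median was -0.03 with WT replicate 1 left out and 0.83 with WT replicate 2 left out. In WT replicate 1 Mef2c was at 2.91 CPM, against 22.2 to 28.4 CPM in the other libraries (named after its values were seen). Tcf12, Tead1 and Tead4 (named likewise) and Tcf3 were lower in replicate 1 than in replicate 2 of both genotypes. The part of these genes in the change of the median was not tested.

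Among 17 inhibitors of myogenic differentiation, 13 were higher and 4 lower, with a median log2 fold change of 0.19. At an unadjusted p under 0.05, 3 were higher and 1 lower, against 5.87% and 4.61% of all genes tested. The lower one, Id4, an inhibitor that captures E proteins, was at 11.7 and 11.3 CPM in WT against 3.20 and 3.13 CPM in Prx-cKO (log2 fold change -1.86, SE 0.25, DESeq2 adjusted p 2.17e-06). Id3, the most abundant of the list, overlapped between groups, at 302 and 267 CPM in WT against 287 and 329 CPM in Prx-cKO. Heyl, a Notch target, was at 9.38 and 11.1 CPM in WT against 17.9 and 20.8 CPM in Prx-cKO. Dll1, a Notch ligand made by myoblasts, was at 11.6 and 10.4 CPM in WT against 19.3 and 16.3 CPM in Prx-cKO.

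Genes of myoblast adhesion and fusion were divided. Of 18 genes 10 were higher and 8 lower, with a median log2 fold change of 0.06. At an unadjusted p under 0.05, 2 were higher and 1 lower, against 5.87% and 4.61% of all genes tested. Cdh15, the cadherin of muscle progenitors, was at 26.7 and 22.3 CPM in WT against 67.2 and 53.5 CPM in Prx-cKO (log2 fold change 1.30, SE 0.20, DESeq2 adjusted p 0.00025). Mymx, the partner of Mymk in fusion, was at 6.85 and 5.94 CPM in WT against 21.4 and 10.7 CPM in Prx-cKO (log2 fold change 1.32, SE 0.38). Boc, a surface co-receptor found on mesenchyme as well, was at 109 and 131 CPM in WT against 84.2 and 87.1 CPM in Prx-cKO. Kirrel1, the most abundant of the list, was at 121 and 150.3 CPM in WT against 136 and 168 CPM in Prx-cKO.

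Differentiation genes separated the Prx-cKO libraries from each other. Of 25 contractile and excitation-coupling genes, 25 were above both WT libraries in Prx-cKO replicate 1, against 32.7% of all genes tested. In replicate 2, 8 of the 25 were above both WT libraries, against 33.1% of all genes tested, and 12 were below both, against 33.0%. The summed level of the list was 578 and 544 CPM in WT, 1405 CPM in Prx-cKO replicate 1 and 601 CPM in replicate 2. The median log2 fold change of 0.77 was -0.15 with Prx-cKO replicate 1 left out and 1.35 with replicate 2 left out. Of the 25, 4 were higher at an unadjusted p under 0.05, against 5.87% of all genes tested. Actc1, the actin of embryonic muscle, was at 120 and 124 CPM in WT, 392 CPM in replicate 1 and 156 CPM in replicate 2. Des, the intermediate filament desmin, was at 12.6 and 14.0 CPM in WT against 38.7 and 20.8 CPM in Prx-cKO. Tpm2, a tropomyosin, was at 69.3 and 68.6 CPM in WT against 150 and 97.3 CPM in Prx-cKO. Myh7, the slow myosin heavy chain, was at 2.03 and 2.01 CPM in WT against 5.53 and 3.23 CPM in Prx-cKO.

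By contrast, all 8 tested regulators were above both WT libraries in each of the 2 Prx-cKO libraries. Their median log2 ratio to the WT mean, on CPM plus a pseudocount of 1, was 1.28 in replicate 1 and 0.83 in replicate 2, where the contractile list had 1.19 and -0.15. Genes of the acetylcholine receptor and the postsynaptic membrane had 0.89 and 0.22. Of the 9 tested, 8 were higher, 1 of them at an unadjusted p under 0.05, against 5.87% of all genes tested. Rapsn, which clusters the receptors, was at 5.05 and 4.78 CPM in WT against 16.8 and 9.24 CPM in Prx-cKO (log2 fold change 1.39, SE 0.36, DESeq2 adjusted p 0.0306). Musk, the receptor kinase of the synapse, was at 2.06 and 3.80 CPM in WT against 6.26 and 4.86 CPM in Prx-cKO. Chrna1, a receptor subunit of embryonic muscle, was at 9.36 and 8.72 CPM in WT against 17.2 and 10.7 CPM in Prx-cKO. The widely expressed Lrp4, the most abundant of the list, overlapped between groups, at 32.0 and 48.7 CPM in WT against 43.6 and 49.9 CPM in Prx-cKO. The difference between the lists was not tested.

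**Figure D4:**
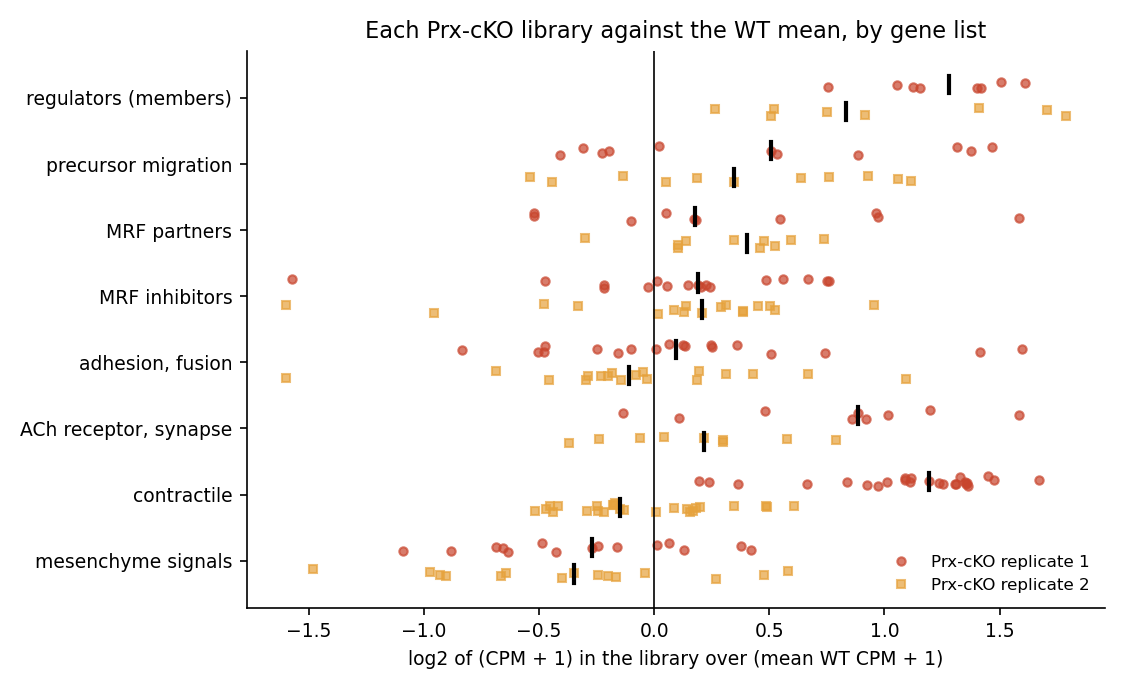
Log2 of (CPM + 1) in each Prx-cKO library over (mean WT CPM + 1), 1 point per tested gene, by gene list; circles are Prx-cKO replicate 1, squares replicate 2, and black bars the medians. The regulators lie to the right of 0 in both libraries, whereas the contractile genes do so in replicate 1 and centre near 0 in replicate 2 (medians 1.19 and -0.15).

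Several of the 9 genes are also used by other embryonic cells, and markers of these were measured beside them. Pax3 is known in neural crest derivatives and in the dorsal spinal cord, where Pax7 and Lbx1 are also used. The 8 neural crest and Schwann precursor markers summed to 96.8 and 98.8 CPM in WT and to 111 and 136 CPM in Prx-cKO. In the fit 7 of 8 were higher, but only 2 had non-overlapping groups, against 22.2% of all genes tested. Their median log2 ratio to the WT mean (pseudocount of 1) was 0.06 in Prx-cKO replicate 1 and 0.47 in replicate 2. Sox10 was at 16.0 and 11.3 CPM in WT against 14.9 and 30.2 CPM in Prx-cKO, with only replicate 2 of Prx-cKO above both WT libraries, and Erbb3 was at 40.7 and 56.2 CPM in WT against 62.7 and 62.2 CPM in Prx-cKO. Their part in the Pax3 difference was not tested. The melanoblast list summed to 23.5 and 29.9 CPM in WT against 16.1 and 17.1 CPM in Prx-cKO. Kit made up most of each sum (19.9 and 24.3 CPM in WT, 13.9 and 15.4 CPM in Prx-cKO). Kit and Mitf, its most abundant genes, were both lower in Prx-cKO, and Tyr was at 0 in all 4 libraries. Of 11 spinal cord markers, 3 were at 0 in all 4 libraries, and the list summed to 0.52 to 3.51 CPM, with Dbx1 at 0.142 to 1.53 CPM. The somite, body wall and organ list summed to 228 and 203 CPM in WT against 140 and 134 CPM in Prx-cKO. Tbx18 made up most of each sum (171 and 172 CPM in WT, 95.2 and 88.0 CPM in Prx-cKO). Pax1 came next by mean level (11.5 to 34.8 CPM, with overlap between groups). Of the tested genes of this list, 3 were higher and 3 lower in the fit, with a median log2 fold change of 0.05. The sign of this median changed with the processing.

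Markers of other cell types of the limb were followed in the same way. All 7 endothelial markers were higher in both Prx-cKO libraries, with a median log2 fold change of 0.44 and sums of 141 and 147 CPM in WT against 196 and 200 CPM in Prx-cKO; Cdh5 and Kdr were the most abundant, and 4 of the 7 were at an unadjusted p under 0.05. Over all genes tested, 22.2% had non-overlapping groups in this direction and 5.87% such a p. All 7 macrophage markers were higher in the fit, with a median of 0.70, sums of 34.9 and 38.4 CPM in WT against 65.0 and 57.7 CPM in Prx-cKO, and Csf1r and Cd68 as the most abundant; 3 of the 7 were at an unadjusted p under 0.05, against the same 5.87%, and the median was 1.11 without WT replicate 2. The surface epithelium list, led by Krt5 and Krt14, summed to 649 and 809 CPM in WT against 781 and 880 CPM in Prx-cKO, and the erythroid list, led by Hbb-y and Hba-x, to 3926 and 2683 CPM in WT against 3662 and 2837 CPM in Prx-cKO. The limb mesenchyme list summed to 1829 and 2101 CPM in WT and to 1292 and 1387 CPM in Prx-cKO. Of its 10 genes, 7 were lower, 4 of them at an unadjusted p under 0.05, against 4.61% of all genes tested. The median was -0.39, and it was -0.21 without WT replicate 2. The part of this list in the higher CPM of the muscle regulators was not tested.

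The genes whose profile over the 4 forelimb libraries was most like the mean of the 8 regulators were C1qa, Tubb2a, Cnbd2, Rtn4 and Nsun4. They were chosen among 11317 genes whose mean reached 5 CPM, by the root mean square distance of their log2 deviations, which was 0.0666 for C1qa and 0.0964 for Nsun4. Among the regulators themselves this distance was smallest for Myod1 (0.125) and largest for Met (0.528). C1qa, a complement gene of macrophages, was at 4.80 and 4.47 CPM in WT against 11.2 and 9.55 CPM in Prx-cKO. Rtn4, a reticulon of the endoplasmic reticulum, was at 82.0 and 84.0 CPM in WT against 180 and 172 CPM in Prx-cKO. With 4 libraries, likeness of profile is a description only.

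In the marrow cultures, 8 of the 9 genes had 0 counts in all 8 libraries, which allows at most 0.156 to 0.187 CPM per library (3 counts, counting error only). The exception was Met. At R0D3 its level was 1.81 and 2.74 CPM in WT against 2.24 and 1.82 CPM in LysM-cKO. At R40D3 its level was 41.7 and 61.3 CPM in WT against 22.1 and 47.7 CPM in LysM-cKO. All 4 R40D3 libraries were thus above all 4 R0D3 libraries, while the genotypes overlapped at each. Met rose from R0D3 to R40D3 by 4.50 on the log2 scale in WT (SE 0.46, edgeR adjusted p 0.00114) and by 4.09 in LysM-cKO (SE 0.47, edgeR adjusted p 0.00309), where 11.4% and 6.99% of the 14030 genes tested were called higher. Between the genotypes, Met did not pass at R40D3 (log2 fold change -0.56, SE 0.34, edgeR adjusted p 0.683) or at R0D3 (-0.15, SE 0.63, edgeR adjusted p 0.997), contrasts in which 0.0143% of genes were called at each. Forelimb and culture values were scaled separately, so their levels are given side by side without a test. These comparisons were added after the values had been seen.

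**Figure D5:**
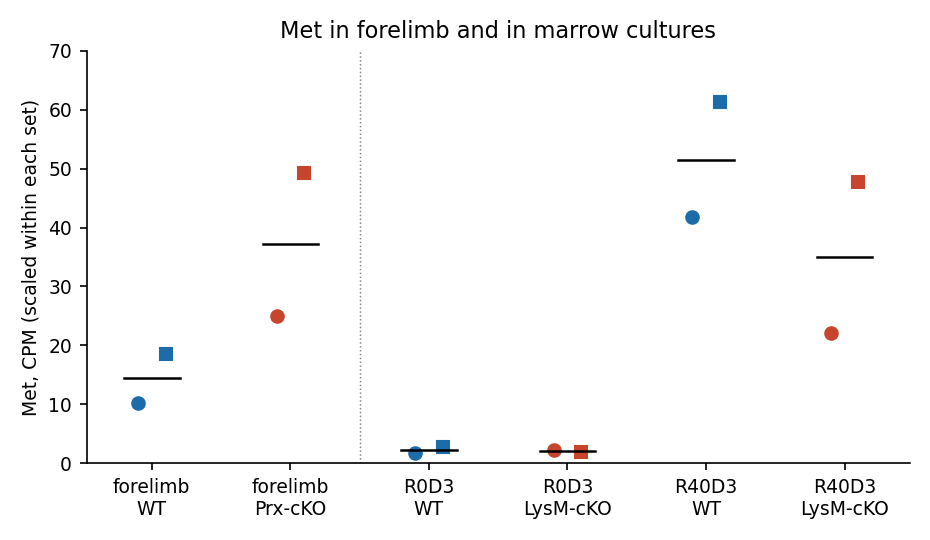
Met in CPM (linear axis) in all 12 libraries by group, scaled within the forelimb set and within the culture set, which the dotted line parts; circles are replicate 1, squares replicate 2, lines group means, blue WT and red knockout. The R0D3 cultures lie between 1.81 and 2.74 CPM and the R40D3 cultures between 22.1 and 61.3 CPM.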

How the data were processed

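Per the labels' protocols, TRIzol was used for RNA extraction and a kit for mRNA for the libraries. The files deposited by the authors hold unnormalised counts, as whole numbers for each Ensembl gene and library. FastQC 0.11.2, Trimmomatic 0.36, HISAT2 2.1.0, DESeq2 1.12.4 and the GRCm38 build are named in the submitters' processing notes; the counting tool, annotation release and use of strand are not given in the sources used here. Symbols matched 99.6% of forelimb identifiers; positions and exon lengths came from GENCODE M21 (GRCm38).

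Genes were kept by filterByExpr of edgeR 4.0.16, leaving 19987 of 51826 forelimb genes and 14030 culture genes, scaled by TMM and tested with the quasi-likelihood fit (legacy = FALSE), Benjamini-Hochberg adjusted over all genes, two-sided, threshold 0.05. Forelimb (4) and culture (8) libraries had separate fits. SE was taken from the log2 fold change and the F statistic (its size over root F). The fit was tested on simulated data with the same spread in both groups. The forelimb groups had unequal spread, which that simulation did not cover. Alternatives were other scalings and filters, DESeq2 1.42.0, limma-voom (limma 3.58.1), all 12 libraries in 1 fit, a replicate block and leaving out each library. Transcripts of 8 members shared no 50-base run with another gene; in Pax3, 0.275% of such runs were shared.

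The members and lists were chosen with earlier results of these data known. Named were all members, Impdh2, from each pathway list the 3 smallest p and the highest level, from each marker list the 2 highest levels, and the 5 genes nearest in profile (mean of at least 5 CPM, pseudocount 1, no Gm-number or Rik symbols); others are marked where named. Some genes that the rule named are not reported here.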

Additional observations from a re-analysis of the deposited data

How the results depend on the processing

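Over the 13 alternatives, all 8 tested members kept a higher value in Prx-cKO, and the member median of 1.16 ranged from 0.90 to 1.35. The alternatives reused the same forelimb libraries, in which the groups of all 8 did not overlap. A change of sign was thus hardly possible. Counts of calls did depend on the choice: DESeq2 gave 301 calls in all and 3 members (Pax3, Lbx1, Myod1), the fit of all 12 libraries 412 calls and 2 members (Pax3, Lbx1), and leaving out 1 library gave 0 to 605 calls and 0 to 3 members, the highest without WT replicate 1; without WT replicate 2 there were 104 calls. The cause was not tested. Members higher at an unadjusted p under 0.05 fell from 7 to 4 without Prx-cKO replicate 1. With the replicate block there were 0 calls, and the member median was 1.14; the deviations of same-numbered forelimb libraries correlated at r = 0.309 across genes, and the labels give no shared litter or day. With the block in the cultures, the Met difference was 4.51 in WT and 4.03 in LysM-cKO, and with 1 library left out it ranged from 4.16 to 4.83 and from 3.40 to 4.55, passing each time.

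List medians near 0 changed sign. With library size alone the adhesion and fusion list was at -0.039, the body wall and organ list at -0.05 (0.05 in the reported fit) and the epithelial list at -0.016 (0.08). The body wall and organ list was also at -0.21 without a filter, -0.20 with DESeq2 and -0.46 with all 12 libraries. With 1 library left out, the medians ranged from -0.57 to -0.16 for that list, from -0.13 to 0.28 for epithelial, from -0.17 to 0.11 for adhesion and fusion, from -0.026 to 0.83 for MRF partners and from -0.15 to 1.35 for contractile genes. Depth limited Myf6, which had 4 to 8 counts per library.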
